A study of Vigna radiata with 18 samples.

Results

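Chromosome 5 of mung bean (Vigna radiata) held 3437 of the 50238 open chromatin peaks in one consensus list of the series, 6.84% of the peaks on 8.98% of the length. The members are all intervals whose chromosome field names chromosome 5, and the other 10 chromosomes, with 46801 peaks, serve as the comparison. The list came from ATAC-seq, an assay that lets the enzyme Tn5 insert sequencing adapters wherever DNA in nuclei is accessible. It holds a position for each peak and no value for any library.

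The plants were wild type, of the cultivar Weilv 9, and the first true leaves were sampled. In T1, pre-conditioned salt stress, seedlings stood in 100 mM NaCl for 24 h, recovered for 48 h without NaCl and then met 100 mM NaCl again. In T2, direct salt stress, they met 100 mM NaCl with no earlier exposure. Harvests followed at 0, 6 and 48 h of the final exposure in each treatment, with 3 libraries in each of the 6 groups, 18 in all. The labels name the cell type protoplast, while their protocol describes nuclei from frozen leaf. Since the list has 0 columns of a library, neither the treatments nor the times nor the leaf origin can be compared or checked in it. Depth is unknown, and absence of a peak here means only that none was listed.

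In plant genomes, accessible DNA is known mostly from promoters and other regulatory DNA of genes. Chromosome interiors around a centromere are typically rich in repeats, poor in genes and compact. Neither the centromere of chromosome 5 nor the genome build is known from the labels or the list. No genome of the build was used, so genes and sequences are not reported.

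Chromosome 5 was the sparsest of the 11 chromosomes, and its empty length was broken into many pieces. It had 76.8 peaks per Mb, whereas the other 10 chromosomes had 102 ± 9.21 (SD, n = 10), between 78.9 on chromosome 1 and 112 on chromosome 8. Each ± below is an SD over those 10 chromosomes. Peak bases took 2.63% of its 44.8 Mb, and 3.68% ± 0.36 of the others. Length was taken from base 1 to the end of the last peak. The first peak began at 376119, farther in than on any other chromosome (6063 to 131352). A single chromosome set against 10 allows no permutation p below 0.0909, so ranks among 11 chromosomes are given here as descriptions and no difference was tested.

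A stretch of at least 100 kb between neighbouring peaks is called a peak-free span below. Chromosome 5 held 43 of them, 24.3% of the 177 in the list, against 13.4 ± 7.28 on the other chromosomes (3 on chromosome 4 to 30 on chromosome 1). Its spans added up to 8.66 Mb, 19.3% of the chromosome. The others had 8.07% ± 4.96 of their length in spans, and chromosome 1 alone, with 20.3%, exceeded chromosome 5. The 3 spans nearest the limit measured 103, 105 and 105 kb, and the 3 longest gaps below it measured 97.3, 96.8 and 93.5 kb. No break in the gap lengths therefore sets 100 kb apart. Chromosome 5 had more spans than each other chromosome at limits of 50 kb (108, against 27 to 97) and 200 kb (16, against 2 to 9) as well.

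**Figure D1:**
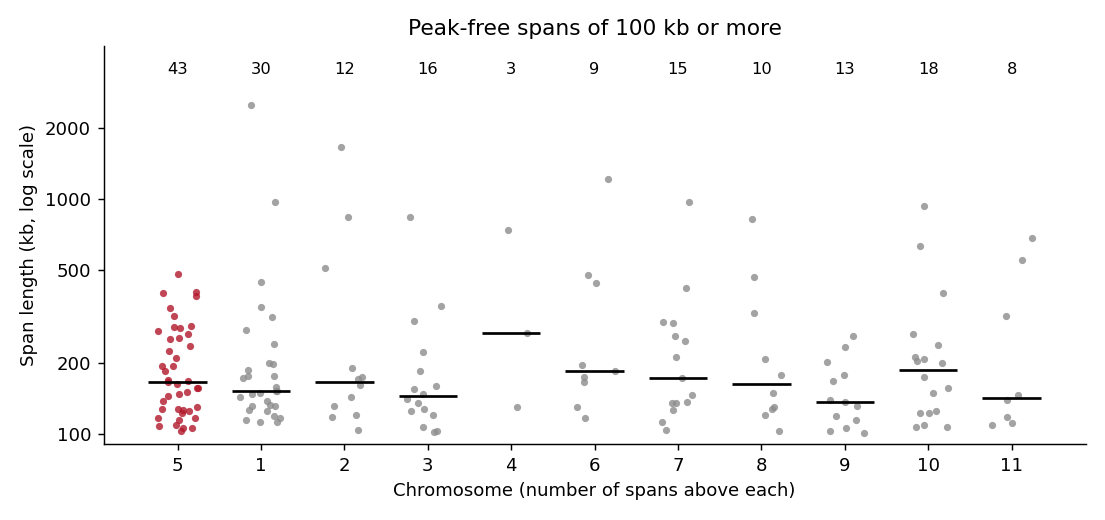
Length in kb (log scale) of each peak-free span of 100 kb or more, by chromosome, with chromosome 5 in red at the left. Each point is a span, each bar a median, and the number of spans stands above. The 43 spans of chromosome 5 reach 481 kb, while chromosome 1 reaches 2522 kb with 30.

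The spans of chromosome 5 were of moderate length. Their median was 167 kb, within the range of 137 to 268 kb on the other chromosomes. The longest measured 481 kb, whereas the longest elsewhere averaged 1064 kb ± 627 and only that of chromosome 9, with 260 kb, was shorter. Of the 43 spans, 17 were under 150 kb, 10 were from 150 to 200 kb, 10 from 200 to 300 kb and 6 longer. The longest span made up 5.55% of the chromosome's peak-free length, against 32.0% ± 14.0 on the others (13.1 to 65.0%). The 3 longest together made up 14.8%, against 58.6% ± 19.5. Both shares tend to fall as spans become more numerous, and on chromosome 4, with only 3 spans, the second is 100% by construction. They are therefore not like for like between chromosomes.

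The peak-free total of chromosome 5 was thus spread over many spans, and no single span held a large part of it. Chromosome 1 reached a similar total, 8.48 Mb, in 30 spans, of which the longest held 29.7%. On chromosome 5, 10.5% of the length lay more than 50 kb from any peak, with the stretch before the first peak included. The others had 5.06% ± 3.50, and chromosome 1, with 13.3%, was above chromosome 5. At more than 200 kb from any peak the share was 0.574%, against 2.02% ± 2.12, and 9 of the 10 others were above chromosome 5. No base between its peaks was farther than 241 kb from one, compared with 1261 kb on chromosome 1. The first bases of chromosome 5, ahead of its first peak at 376119, lay farther from one. That stretch counts in both shares but not as a span.

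**Figure D2:**
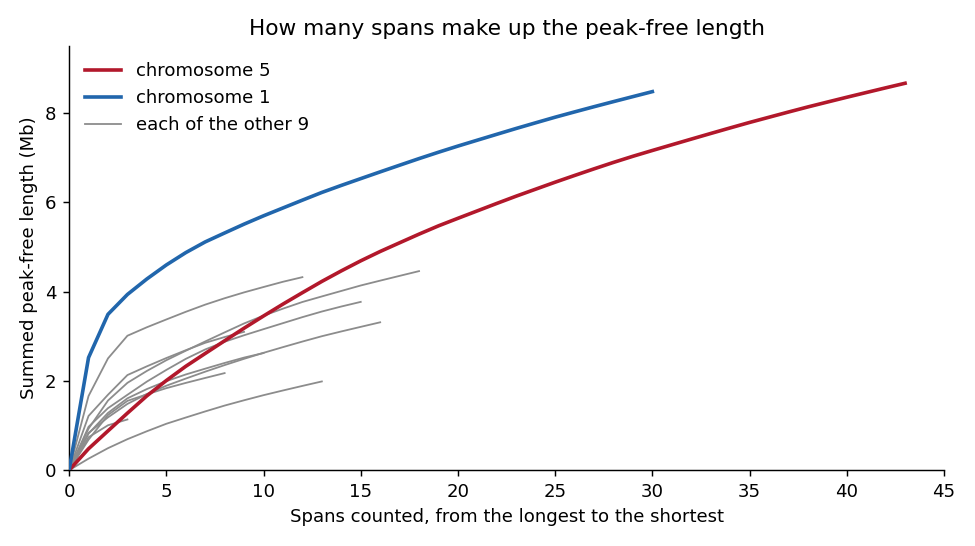
Summed peak-free length in Mb (vertical axis) as spans are added from the longest to the shortest (horizontal axis), with 1 line per chromosome. Chromosome 5 (red) climbs evenly to 8.66 Mb over 43 spans. Chromosome 1 (blue) gains 2.52 Mb from its first span and ends at 8.48 Mb after 30.

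The spans were gathered in the middle of the chromosome and somewhat beyond it. Of the 43, 41 (95.3%) had their centre in the middle 60% of the length, and the median centre lay at 61.9%. On the other chromosomes the share was 80.7% ± 23.1, from 25.0 to 100%. The fullest stretch of 15 Mb held 32 of the 43 spans, 74.4%, against 81.8% ± 12.7 on the others, of which 8 were above chromosome 5. The other chromosomes differ in length (28.2 to 75.1 Mb) and in number of spans, and on chromosome 4 all 3 spans fell in such a stretch. These shares are therefore not like for like, and no ranking by gathering is drawn from them.

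Spans that followed each other with less than 1 Mb of peaks between them were joined into tracts. Chromosome 5 had 3 tracts, which together held 38 of its spans, 32.2% of its length and 549 peaks, 16.0% of the total. On the other chromosomes tracts took 11.1% ± 8.95 of the length, and on chromosome 1, with 34.7%, more than on chromosome 5. The share on chromosome 5 was 66.0% with spans counted from 50 kb and 16.3% with spans from 200 kb. Because gaps define the tracts, their low density follows from the rule, and their number, length and place are the description. The first, at 14861237 to 15213161, had only 2 spans around 3 peaks. The second ran from 19295453 to 23240678, 3.95 Mb, with 11 spans and 122 peaks, and was 64.7% peak-free. The third ran from 25729604 to 35856310, 10.1 Mb, with 25 spans and 424 peaks, and was 50.0% peak-free.

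The third tract was the longest of the list and held the most spans. The largest tracts of the other chromosomes had 6.6 ± 2.95 spans, and the closest was one of 8.42 Mb with 14 spans on chromosome 1. That tract was 69.1% peak-free, and a single span of 2522 kb made up 43.3% of its empty length. In the third tract of chromosome 5 the longest span made up 9.51%. The order of these 2 chromosomes depended on the limits. With spans counted from 50 kb the largest tract had 77 spans on chromosome 5 and 79 on chromosome 1, and with islands of up to 2 Mb joined it had 26 and 28. With spans counted from 200 kb, the 6 spans of the largest tract on chromosome 5 equalled the highest number elsewhere.

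**Figure D3:**
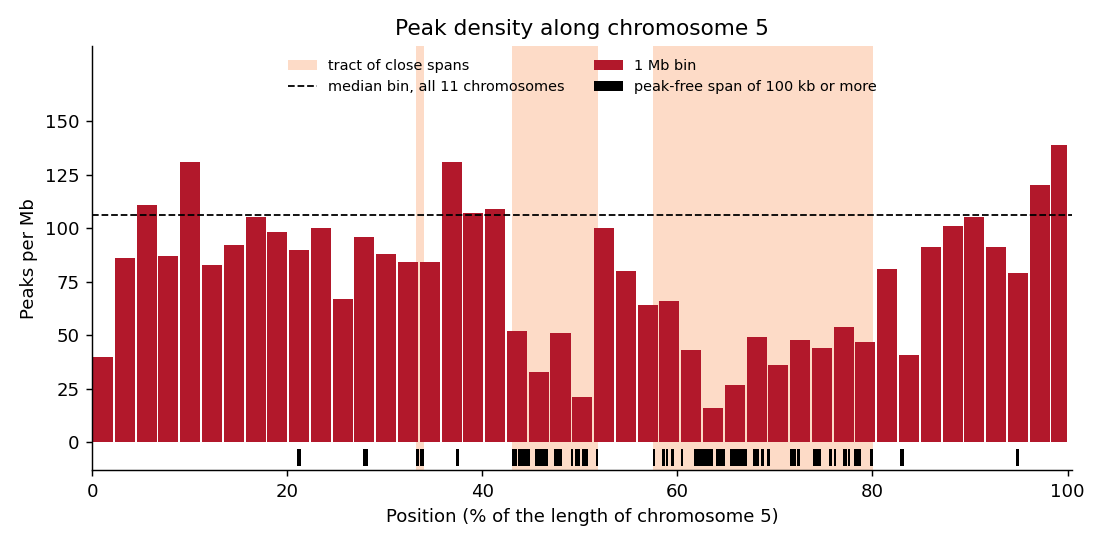
Peaks per Mb in bins of 1 Mb along chromosome 5, placed as percent of its length. Shading marks the 3 tracts, black blocks the 43 spans, and the dashed line the median bin of all 11 chromosomes, 106 peaks. Bars inside the second and the third tract mostly stay under 55, and those between them reach 100.

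The 10 longest spans all lay in the second and the third tract. Those of the second tract were 400 kb (20523114 to 20922861), 387 kb (21202527 to 21589455) and 285 kb (22474519 to 22759508). In the third tract, spans of 281 kb (27834592 to 28115990), 319 kb (28746441 to 29064975), 481 kb (29303833 to 29784955), 287 kb (29793230 to 30080544) and 273 kb (30330616 to 30603570) came close behind one another. The remaining pair, 398 kb (33078409 to 33476183) and 343 kb (34963845 to 35306434), stood farther along. Between 27834592 and 30603570, where shorter spans stood between some of these 5, the islands held 2 to 24 peaks each.

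Between the second and the third tract lay 2.49 Mb with no span at all, at 23240679 to 25729603. This stretch held 223 peaks, 89.6 per Mb. The zones before the first tract and after the third, with 2 spans each, had 91.3 and 93.2 per Mb. With spans taken out of the length these 2 zones had 93.8 and 96.2 per Mb, both above the stretch without a span. The 4.08 Mb between the first and second tracts had 117 peaks per Mb, more than any other zone of the chromosome. It contained the densest 1 Mb, at 15700001 to 16700000, with 139 peaks, and directly bordered the second tract. The sparsest 1 Mb lay just inside that tract: 5 windows, moved in steps of 100 kb, held 11 peaks each, the first from 19300001 to 20300000.

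Bins of 1 Mb showed the same runs. Bins with fewer than 53 peaks, less than 50% of the median over all chromosomes, numbered 14 of 44 full bins (31.8%), against 7.55% ± 5.95 of the bins on the others. They formed a run of 4 from 19000001 to 23000000 with 21 to 52 peaks each, and a run of 7 from 27000001 to 34000000 with 16 to 49 peaks each. The longest run on any other chromosome was 5 bins, on chromosome 1. A bin with 54 peaks, just over the limit, separated the run of 7 from another sparse bin. Single sparse bins also lay outside the tracts, at 1 to 1000000 (40 peaks) and 37000001 to 38000000 (41 peaks). No bin of chromosome 5 was empty, its lowest holding 16 peaks, while the lowest bins of the others held 0 to 39.

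The low density of chromosome 5 was not confined to the tracts. Outside them it had 95.1 peaks per Mb, and the other chromosomes outside theirs had 111 ± 4.53, from 103 to 116, all above chromosome 5. With all spans of 100 kb or more taken out of the length, the density was 95.2 per Mb on chromosome 5 and 111 ± 5.75 on the others, again all higher (99.0 to 117). Against the pooled density of the other 10, chromosome 5 stood 25.5% lower with spans and 14.9% lower without them. Its densest full bins, 2 with 131 peaks, compared with highest bins of 156 ± 13.1 peaks on the others. Only the highest bin of chromosome 3, with 130, was lower. The last 10% of the length had 106 peaks per Mb, close to the 105 ± 33.2 of the others, whereas the first 10% had 82.9, against 119 ± 23.3.

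The gaps between neighbours differed mainly at the long end. The lower quartile was 2155 bp on chromosome 5 and 2154 bp ± 174 on the others. The median was 6216.5 bp, against 5742 bp ± 218, the 95th percentile 39337 bp, against 27953 bp ± 2972, and the 99th 120 kb, against 53.3 kb ± 14.2. From the median upwards each of these values exceeded those of all other chromosomes. Gaps of 150 to 700 bp made up 9.31% of all gaps, within the 7.29 to 9.89% of the others. For gaps of 2000 to 5000 bp the share was 18.7%, against 21.0% ± 1.13, and 9 of the 10 others were above chromosome 5. Gaps of 20 to 50 kb made up 11.9%, above the range of 8.04 to 10.5%, although they lie far below the limit for a span.

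**Figure D4:**
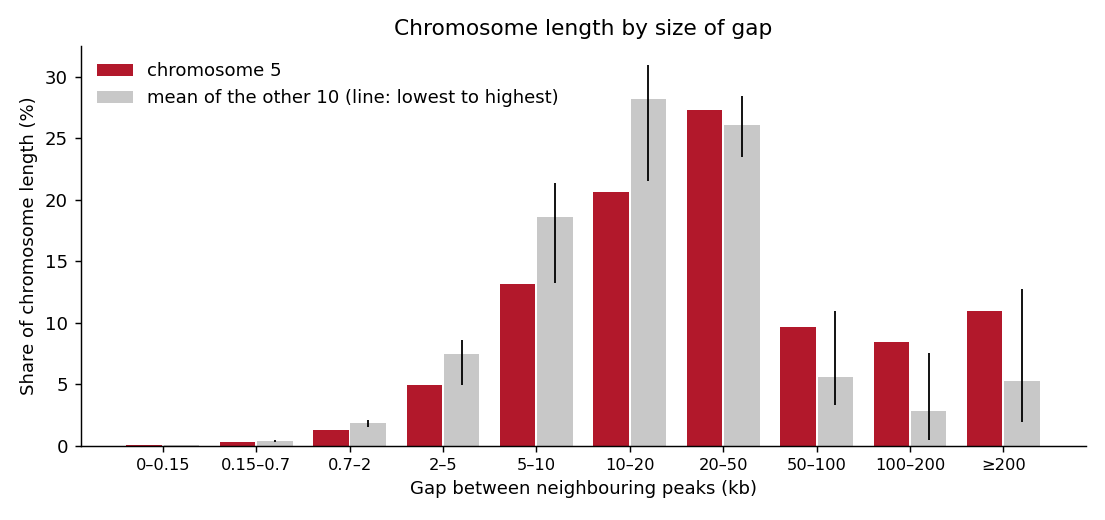
Share of chromosome length (%) in gaps of each size between neighbouring peaks, for chromosome 5 (red) and the mean of the other 10 (grey, with a line from the lowest to the highest). Gaps of 5 to 10 kb take 13.1% on chromosome 5 and 18.6% on average on the others, and gaps of 100 to 200 kb take 8.41% and 2.78%.

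The spans cut chromosome 5 into 44 islands of peaks, with a median length of 222 kb and a median of 16 peaks. The other chromosomes had 14.4 ± 7.28 islands. Their median lengths ran from 173 kb on chromosome 11 to 6466 kb on chromosome 4. Only chromosome 11, with a median of 15 peaks, was below chromosome 5 in either median. The largest islands lay outside the tracts. The first ran from 376119 to 9402813 and held 878 peaks, the fewest in the longest island of any chromosome (951 to 3876 on the others). The 9 islands outside the tracts were 1239 kb or longer, which the limit of 1 Mb for joining spans fixes in part, with 82.3 to 127 peaks per Mb.

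The 35 islands inside the tracts were 0.576 to 931 kb long and held 1 to 61 peaks, 8 at the median. As a whole they had 84.1 peaks per Mb, against 97.6 outside the tracts with spans taken out. Islands inside the tracts were thus thinner than the rest of the chromosome even with their spans set aside. The longest, 931 kb from 31104840 to 32035399, had 38 peaks and with 40.8 per Mb was among the thinnest.

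Fewer than 10 peaks were found in 19 of 44 islands. All 19 were shorter than 1 Mb and so inside the tracts by the rule. The other chromosomes had 4.7 ± 2.67 such islands (1 to 9) among 14.4 ± 7.28 islands in all. As a share of islands, chromosome 7 (8 of 16) and chromosome 11 (4 of 9) were above chromosome 5, and the remaining chromosomes were below it. The 19 small islands of chromosome 5 held 75 peaks, 2.18% of the chromosome's total. Compact islands, under 10 kb long, numbered 7 and held 16 peaks. At 20522213 to 20523113, for instance, peaks of 272 and 211 bp lay 418 bp apart, with 210 kb of empty sequence on the left and 400 kb on the right. A similar pair of 262 and 273 bp, 607 bp apart, stood at 19942660 to 19943801 between spans of 266 and 163 kb. The single island of 1 peak, 576 bp wide at 19675791 to 19676366, lay between spans of 148 and 266 kb.

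The other 12 small islands were spread over 21.8 to 206 kb. The pair at 22400738 to 22474518, with peaks of 216 and 258 bp, was separated by 73.3 kb, a gap short of the limit. At 20107042 to 20312597, 7 peaks were strung over 206 kb with gaps of up to 77952 bp. These were the widest gaps inside the small islands. In the other spread islands the widest gap was 14.0 to 57.1 kb.

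Another compact island stood out by the width of its peaks. At 29784956 to 29793229, 4 peaks of 1010, 940, 535 and 3207 bp covered 68.8% of 8.27 kb. Its median width of 975 bp ranked first of the 46 islands with 2 to 9 peaks on all chromosomes. To its left lay the longest span of the chromosome, 481 kb from 29303833 to 29784955, and to its right one of 287 kb to 30080544. The next island began with a peak of 1246 bp. Among the 85 peaks that bordered a span on chromosome 5 these were the 3 of 1000 bp or more (1010, 3207 and 1246 bp), a share of 3.53%. The other chromosomes had fewer bordering peaks, 5 to 58, of which 0 or 1 were as wide, with a highest share of 3.13% on chromosome 10. The island was singled out after its values were seen.

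The densest island of chromosome 5 with 10 or more peaks also lay among long spans. It ran from 20922862 to 21202526 in the second tract, between spans of 400 and 387 kb, both among the 4 longest of the chromosome. It held 61 peaks in 280 kb, 218 per Mb, with a median width of 259 bp, and 7.33% of it was covered. It alone supplied 50.0% of the tract's peaks, and without it the tract's islands had 54.7 peaks per Mb in place of 87.5. Its median gap was 1630 bp, and 18 of its 60 gaps were between 150 and 700 bp. Next came an island of 50 peaks in 303 kb at 26716778 to 27019746, with 165 per Mb. Among islands under 1 Mb with at least 50 peaks and a span on both sides, these were the 2 densest of 11 in the list, ahead of one on chromosome 6 with 139 per Mb. The minimum of 50 was set after the values were seen. With a minimum of 10 peaks, the island of 61 was still the densest of 55, and one of 10 peaks on chromosome 6, with 191 per Mb, came before that of 50.

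**Figure D5:**
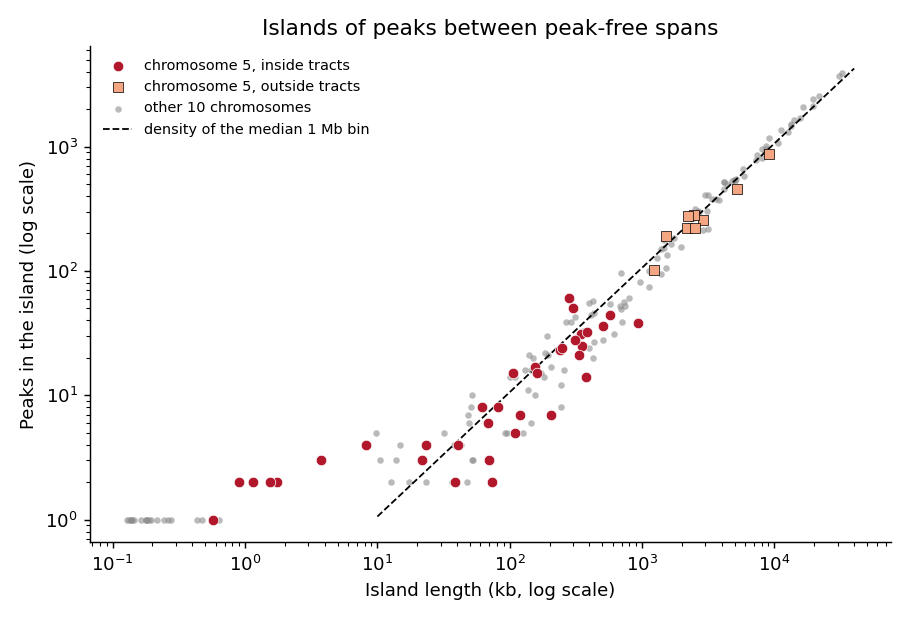
Number of peaks against length in kb (both log scales) of the islands between spans, for chromosome 5 inside its tracts (red), outside them (squares) and the other 10 chromosomes (grey). The dashed line is the density of the median 1 Mb bin. The islands of 61 and 50 peaks lie above it, and compact islands of 1 to 4 peaks lie at the lower left.

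Runs of peaks less than 700 bp apart lay in that island and elsewhere. Those in the island restate its short gaps. The longest run on chromosome 5 had 5 peaks within 3.33 kb at 21170115 to 21173443, and a run of 4 lay at 20932410 to 20936022, both in the island of 61 peaks. Of the other runs of 4, those at 42065702 to 42067849 and 41371665 to 41374345 were near the far end and one at 2440097 to 2443105 near the start. In all, 29 runs of at least 3 peaks took up 93 peaks, 2.71% of the chromosome, within the 1.77 to 4.34% of the others.

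Peaks on chromosome 5 were slightly narrower than elsewhere. Their widths had a median of 279 bp and quartiles at 193 and 418 bp, against medians of 282 to 299.5 bp on the other chromosomes (mean 292 bp ± 5.81). Peaks of 1000 bp or more numbered 63, 1.83% of the total, and the others had 2.32% ± 0.24, from 1.97 to 2.67%. Inside the tracts the median was 270 bp and outside 281 bp, a difference of -11 bp. The difference was also negative on all 10 others, from -109 to -3 bp. Width outside the tracts remained below that of each other chromosome outside theirs (282 to 300 bp).

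The median width was 262 bp for peaks next to a span, against 280 bp for the other peaks of the chromosome. On the other chromosomes this difference averaged -51.5 bp ± 50.0. Its sign depended on the narrowest peaks, since leaving out the narrowest 25% of the list gave 4 bp in place of -18 bp.

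The widest peaks did not follow the narrow median. Chromosome 5 had 5 peaks over 2000 bp, and the other chromosomes had 0 to 7. The widest, 3562 bp at 34894489 to 34898050, stood in an island of 15 peaks in the third tract, 41.1 kb from its neighbour on the left and 8.27 kb from that on the right. That of 3207 bp belonged to the compact island described above, and one of 2228 bp at 27487296 to 27489523 also lay in the third tract. The remaining pair, 2645 bp at 37078370 to 37081014 and 2360 bp at 37334307 to 37336666, lay on either side of a span of 156 kb beyond that tract. Thus 3 of the 5 were in a tract with 12.3% of the chromosome's peaks. Of peaks of 1000 bp or more the third tract had 10 of 424 (2.36%), and the second 1 of 122 (0.82%). All tracts together had 11 of 549 (2.00%), near the 52 of 2888 (1.80%) outside them.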

How the data were processed

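ATAC-seq libraries of 18 leaf samples lie behind a single deposited list of consensus peaks with 3 columns (chromosome, start, end). Per the submitters' processing notes, the tools included MACS3 3.0.3, Bowtie2, bedtools 2.28.0, SAMtools 1.22.1 and fastp 1.0.1. No source says what each did. The peak threshold, the merging of libraries, the handling of multiply mapped reads and the build are likewise unstated in the labels. A stricter threshold, or discarding multiply mapped reads, can lengthen peak-free spans, and merging libraries can widen peaks. None of these was tested here. The 50238 intervals were sorted and did not overlap. Widths, gaps, spans, islands, tracts and 1 Mb bins (by peak centre) were computed with Python 3.11.15, numpy 2.4.6 and pandas 2.3.3, and checked on simulated data. Coordinates count from 1. Chromosomes are parts of one list and not replicates, so no test was made. The gene table at hand is of the assembly of VC1973A, was not matched to the list and was not used here. Regions named are the longest spans, the sparsest and densest 1 Mb, small islands, the 5 widest peaks and the 5 closest runs, and exceptions are stated. Members, limits and rules were chosen with earlier results of these data known.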

Additional observations from a re-analysis of the deposited data

How the results depend on the processing

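Of 67 alternatives for 14 results, 48 stayed near the reported value, 18 did not and 1 changed sign. Near meant within 1 SD, taken over the other 10 chromosomes, on either side of the value for chromosome 5. An exact binomial interval served for the share of spans in the middle. A factor of 1.5 served for counts, island length and the share of the longest span. These bands can be wide: for the width of peaks beside a span it ran from -68.0 to 32.0 bp and so included no difference. Merging peaks closer than 150 bp (49838 left) moved none of the results. Leaving out the narrowest 25% (37530 left) turned the width of peaks beside a span minus that of others to 4 bp, and the cause was not tested. The limit for a span moved most values, by its own construction. At 50 kb there were 108 spans with 29.0% of the chromosome, 77.8% of them in the middle 60%, a density outside spans of 0.911 of the other chromosomes, islands of 100.03 kb at the median, 77 spans in the largest tract and 66.0% of the chromosome in tracts. At 200 kb these were 16 spans, 10.9%, 100%, 0.793, 370 kb, 6 spans and 16.3%, and the longest span made up 9.82% of the peak-free length. Bins of 500 kb gave 23 sparse bins and bins of 2 Mb gave 5. Joining islands under 500 kb left 11 spans in the largest tract. The alternatives for tracts and for the longest span were chosen after seeing the data. No paired analysis was possible because values per library are absent from the list, so no replicate could be left out. Read depth is unknown, and it cannot be read from the list whether a span had too few reads for a peak.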
